A study of Drosophila melanogaster with 3 samples.

Results

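The Toll and Imd pathway components described here are 10 Drosophila melanogaster genes, Tl, pll, cact, dl and Dif of the Toll pathway and PGRP-LC, PGRP-LE, imd, key and Rel of the Imd pathway. They were chosen by name, among 13945 protein-coding genes on the 6 chromosome arms, and each was taken as its annotated gene span with 5 kb added to each side. Hr4 is a nuclear receptor without a known hormone that acts in the ecdysone hierarchy, and its binding was mapped in 3 biological replicates by chromatin immunoprecipitation and sequencing (ChIP-seq) with an antibody against GFP. All replicates belonged to 1 group, whole white prepupae of both sexes pooled, from a transgenic line that stably expresses Hr4 with GFP at its C-terminus, so no conditions were compared and no test was made. The labels give an age of 48 days beside the prepupal stage, and they do not give the number of animals, the site of the transgene or the state of the endogenous Hr4 gene. Binding in a whole animal cannot be assigned to a tissue, and peak lists hold no marker by which the labelled stage or material could be checked. Sequencing depth is unknown and no control library was analysed here, so the precision of a single peak cannot be given.

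The Toll and Imd pathways are the main NF-kappaB routes of fly immunity. In the Toll pathway the cleaved ligand Spätzle binds the receptor Tl, the kinase pll acts downstream of it, the inhibitor cact is degraded, and the transcription factors dl and Dif enter the nucleus. The same pathway patterns the dorsoventral axis of the embryo. In the Imd pathway the peptidoglycan receptors PGRP-LC and PGRP-LE signal through the adaptor imd and a kinase complex that contains key, the fly IKKγ, to activate the transcription factor Rel. Ecdysone, the steroid hormone that drives puparium formation, is known to raise PGRP-LC expression in Drosophila.

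Hr4-GFP peaks lay near most of these genes. In the reproducible list, which holds 8693 peaks, 8 of the 10 genes had a summit (the point of highest signal of a peak) in the span or within 5 kb of it, where 51.2% of all protein-coding genes did. The exceptions were PGRP-LE and key. A summit lay within 1 kb of an annotated start site of 7 genes, Tl, cact, dl, Dif, PGRP-LC, imd and Rel, against 22.7% of all protein-coding genes. The 10 regions, 207.5 kb together, held 24 summits, 18 of them at the 5 Toll genes and 6 at the 5 Imd genes. That is 0.116 summits per kb in these regions and 0.0649 per kb over the arms as a whole. The arm value also covers sequence outside gene regions, so the comparison is not like for like. Of the 24 summits, 14 lay inside the gene span itself. Their strength spread over most of the list. The signal value, the authors' measure of peak strength, ran from 94.01 to 1111.8. Its median was 157.1 for the 24 summits and 176.6 for all reproducible peaks, and 11 of the 24 ranked in the stronger 50% of the list.

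**Figure D1:**
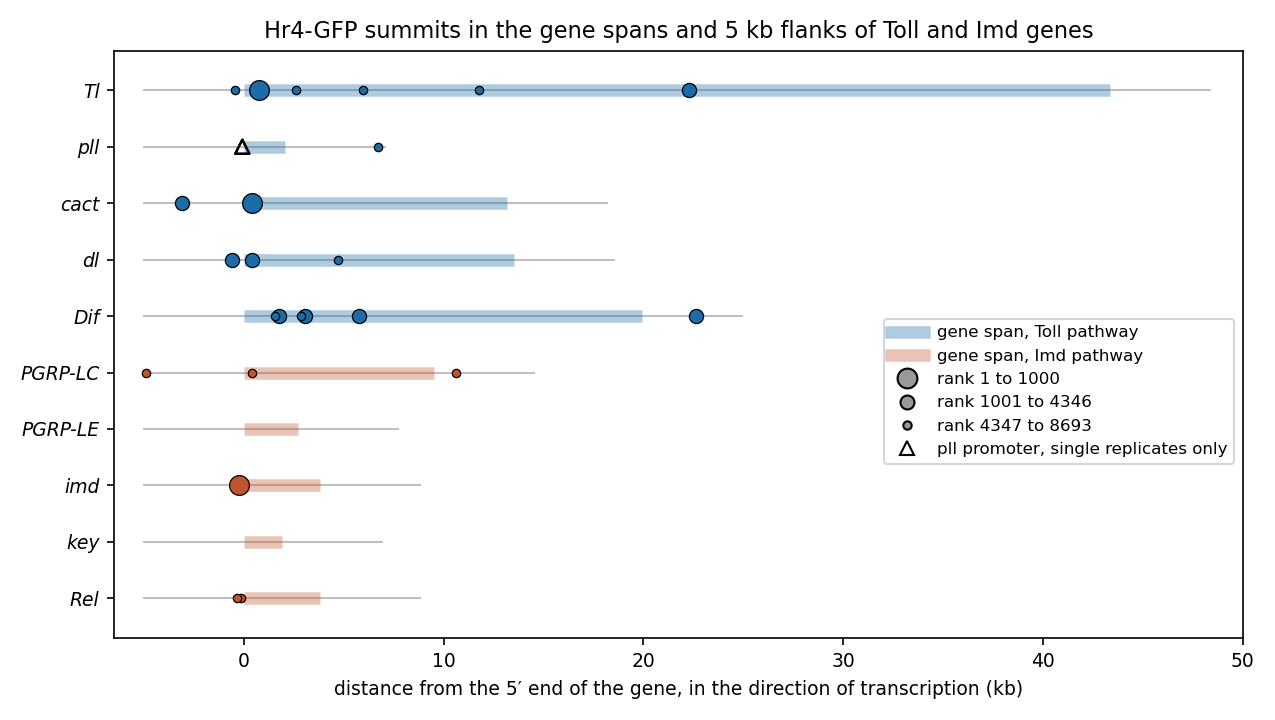
Each row is a gene, with its span as a bar, its 5 kb flanks as a line and each reproducible Hr4-GFP summit as a point, placed by the distance in kb from the 5′ end of the gene in the direction of transcription; larger points have a higher signal rank (rank 1 is the highest of 8693). Summits lie within 1 kb of the 5′ end at Tl, cact, dl, PGRP-LC, imd and Rel, the highest ranked being those of imd (rank 158), cact (389) and Tl (636), while PGRP-LE and key have none; the open triangle marks the entries of the single replicates at the pll start.

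The sequences below show the variety of DNA under these summits, as 101 bases centred on each, in build dm6 (RefSeq, Release 6 sequence). The first 3 are among the stronger summits at Toll genes, the fourth holds 2 of the searched motifs, the Rel sequence lies at that gene's start and was found in only 2 replicates, and the pll sequence is the entry of replicate 2 at the pll start that has no reproducible peak. The labels of the Dif sequences name the nearest Dif start, and the summits lie 1738 bp (upstream start) and 790 bp (downstream start) downstream of it, within introns. Capitals mark the longest unbroken run of A and T within the 101 bases, or the first where runs are equally long. In the second Dif sequence they mark the CACGTG and AGATAA motifs instead.
cact, chr2L:16325758-16325858, plus strand: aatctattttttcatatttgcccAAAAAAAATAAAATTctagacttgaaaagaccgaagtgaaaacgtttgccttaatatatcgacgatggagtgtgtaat
Tl, chr3R:26799738-26799838, plus strand: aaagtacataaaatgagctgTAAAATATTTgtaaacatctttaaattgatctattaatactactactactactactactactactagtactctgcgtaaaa
Dif, upstream start, chr2L:17431373-17431473, plus strand: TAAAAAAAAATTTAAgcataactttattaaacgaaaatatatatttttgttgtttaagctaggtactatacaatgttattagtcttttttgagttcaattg
Dif, downstream start, chr2L:17427359-17427459, plus strand: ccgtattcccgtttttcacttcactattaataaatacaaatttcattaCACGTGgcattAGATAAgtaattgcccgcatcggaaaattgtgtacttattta
Rel, chr3R:9048089-9048189, plus strand: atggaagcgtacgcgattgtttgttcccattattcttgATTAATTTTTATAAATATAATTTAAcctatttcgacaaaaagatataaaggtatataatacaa
pll, chr3R:27253216-27253316, plus strand: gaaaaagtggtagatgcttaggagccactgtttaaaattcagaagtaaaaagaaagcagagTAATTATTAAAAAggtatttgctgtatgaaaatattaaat
All 6 were rich in A and T, with GC contents of 29.7% (cact), 25.7% (Tl), 19.8% and 32.7% (Dif), 24.8% (Rel) and 27.7% (pll).

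Tl, the transmembrane receptor (gene FBgn0262473, 3R 26799041 to 26842403, plus strand), held 6 summits. That is the joint highest number with Dif, where overlapping peaks were counted separately. The strongest Tl summit lay 747 bp downstream of the single annotated start site, in the first intron of all 3 transcripts, and had a signal value of 627.9 (rank 636). Its entries in replicates 1, 2 and 3 had signal values of 222.7, 231.5 and 173.2, each on the scale of its own list, and ranks of 451, 659 and 942 among 30000. All 3 replicates thus placed it among their strongest entries. A second summit with higher ranks than the rest lay 22289 bp into the gene, with a signal value of 264.1 (rank 2646) and replicate ranks of 1866, 3407 and 3367. The other summits, 464 bp upstream and 2598, 5939 and 11754 bp downstream of the start, were weak, with signal values between 96.78 and 155.9. The ranks of the summit at 2598 bp differed most between replicates, at 10904, 3630 and 5280. All 5 summits inside the Tl span fell in introns. Those at 747, 2598 and 5939 bp lay in the first intron of all 3 transcripts, and those at 11754 and 22289 bp in the first intron of 2 transcripts, past it in the other.

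At pll, the kinase that acts below Tl (FBgn0010441, 3R 27251131 to 27253182, minus strand), the reproducible list and the single replicates differ. The only reproducible summit in the pll region lay 6684 bp from its start, in the 3′ UTR of the neighbouring gene CG5984, with a signal value of 158.2 (rank 4882). All 3 replicates, however, held a strong entry at the pll start itself, 90, 84 and 77 bp upstream of it in replicates 1, 2 and 3. Their signal values were 142.8, 158.9 and 128.7 and their ranks 1051, 1274 and 1536, higher in each replicate than the ranks of the reproducible pll summit (11942, 3128 and 4698). The pooled relaxed list, which was made from the reads of all 3 replicates and supplied the reproducible peaks, had no entry there. This case was singled out after its values were seen. Such absences were rare: of 5985 entries of replicate 2 that ranked within 8693 in all 3 replicates, 43 (0.718%) had no pooled entry within 250 bp, 1 of them in the 10 regions. The reason for the missing pooled entry was not tested. When genes were counted by entries that ranked within 8693 in all 3 replicates and lay within 1 kb of a start site, 7 of the 10 had one, as did 15.7% of all protein-coding genes. By that count pll was included and Rel was not.

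The inhibitor cact (FBgn0000250, 2L 16313036 to 16326207, minus strand), the IκB protein of the Toll pathway, had the strongest summit among the Toll genes. It lay 183 bp upstream of the start site at 16325625 and inside the first intron of 2 longer transcripts, with a signal value of 790.4 (rank 389). The replicate entries had signal values of 272.7, 264 and 252.6 and ranks of 289, 496 and 434. Each replicate thus ranked it among its highest entries. The other summit in the cact region, with a signal value of 290.1 (rank 2328), lay 3123 bp upstream of the gene and 198 bp upstream of mRpL4, the nearest start.

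The NF-kappaB factors dl and Dif are neighbours on 2L and are transcribed in the same direction. Their flanked regions overlap, but no summit was counted for both. dl (FBgn0260632, 2L 17436830 to 17450364, minus strand), also the dorsoventral morphogen of the embryo, had 3 summits, each within 1 kb of an annotated start. The pair at its upstream start were of nearly equal strength: 1 lay 386 bp downstream, in the 5′ UTR, with a signal value of 325.4 (rank 1946), and the other 589 bp upstream, in an exon of the non-coding gene lncRNA:CR46204, with a signal value of 319.3 (rank 2008). In replicates 1, 2 and 3 the ranks were 2608, 2102 and 1716 for the summit in the 5′ UTR and 2165, 1890 and 2456 for the upstream summit, so their order changed between replicates. The remaining dl summit, 90 bp upstream of an internal start, was the weakest of all 24, with a signal value of 94.01 (rank 8183), and had no match in replicate 3.

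Dif (FBgn0011274, 2L 17413248 to 17433161, minus strand), which acts in the Toll immune response of the adult, had 6 summits and the highest density of the 10 genes, 0.201 per kb. Both values count overlapping peaks separately, and its place as the densest rests on this. The peaks with summits at 17431423 and 17431628 overlap, as do those at 17430108 and 17430307. With overlapping peaks merged, a setting added after seeing the data, the 10 regions held 21 summits. The strongest inside the gene lay 1738 bp downstream of the upstream start, with a signal value of 417.4 (rank 1299) and replicate ranks of 1531, 1298 and 1205. A weak summit a short distance closer to that start, with a signal value of 99.12 (rank 7818), matched the same entries of replicates 1 and 2 and is therefore not separate evidence in those replicates. Likewise the summits at 17430108 (signal value 244.5) and 17430307 (125.1), upstream of the internal start at 17428199, shared their entry in replicate 3. The summit closest to a Dif start lay 790 bp downstream of that internal start, with a signal value of 190.5 (rank 3966) and replicate ranks of 3326, 3548 and 5800. The 5 summits inside Dif all lay in a first intron of at least 1 transcript, and that at 17430108 also in an exon of lncRNA:CR44409. The strongest in the region, with a signal value of 428.1 (rank 1244), lay outside the gene, 111 bp upstream of CG15141 and 124 bp upstream of Polr2J.

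The Imd receptors had weak summits or none. PGRP-LC (FBgn0035976, 3L 9338810 to 9348336, plus strand), the membrane receptor for peptidoglycan, had 3 summits, none in the stronger 50% of the list. The summit near its own start lay 404 bp downstream, in the first intron of 1 of its 10 transcripts, with a signal value of 116.5 (rank 6682) and replicate ranks of 8156, 7416 and 6006. The other summits were nearest to its neighbours in the same receptor cluster, 406 bp upstream of PGRP-LA (signal value 121.3, rank 6436) and 210 bp upstream of PGRP-LF (141.2, rank 5505). PGRP-LF encodes an inhibitory receptor of the Imd pathway. PGRP-LE (FBgn0030695, X 15801153 to 15803880, minus strand), which senses peptidoglycan inside cells and in the haemolymph, had no reproducible summit. Replicates 1, 2 and 3 held 0, 8 and 8 relaxed entries in its region. The highest in replicate 3 ranked 7843 and lay 218 bp downstream of a PGRP-LE start. The highest in replicate 2 ranked 10666 and lay 116 bp upstream of a start. The best pooled entry there had a signal value of 74.04 (rank 10268) and was not in the reproducible list. The nearest reproducible summit was 40424 bp from the gene, at ArgRS. Replicate 1 held fewer entries on the X chromosome than the others did, 3262 against 5753 in replicate 2 and 6069 in replicate 3, and its part in the count at PGRP-LE was not tested.

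The adaptor gene imd (FBgn0013983, 2R 18409796 to 18413599, minus strand) had the strongest summit of all 24. Its signal value was 1111.8 (rank 158). In replicates 1, 2 and 3 the entry had signal values of 300.1, 449.2 and 368.9 and ranks of 228, 124 and 168. It lay 270 bp upstream of imd but only 182 bp upstream of a start of Dp1, which is transcribed in the opposite direction. It also lay inside the span of Dp1, in an intron of 5 of its 7 transcripts, so the summit cannot be assigned to imd alone. At key (FBgn0041205, 2R 24785514 to 24787411, minus strand), the regulatory subunit of the IκB kinase complex, no list held any entry. The region was empty in the relaxed lists of all 3 replicates, as for 9.65% of protein-coding genes, and in the pooled relaxed list. A strong reproducible summit, with a signal value of 1454.3 (rank 78), lay 6256 bp from the gene, near the start of Reg-5 and outside the 5 kb flank.

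Rel (FBgn0014018, 3R 9044183 to 9047977, minus strand), the NF-kappaB factor of the Imd pathway, had 2 neighbouring summits in the weaker part of the list that were missing from replicate 1. They lay 162 and 371 bp upstream of its start, with signal values of 148.1 (rank 5250) and 133.4 (rank 5842), and their peaks overlap. The summit at 162 bp ranked 4795 in replicate 2 and 9317 in replicate 3, and that at 371 bp ranked 5284 in replicate 2 and 7474 in replicate 3. Replicate 1 had no relaxed entry anywhere in the Rel region, which held 8 entries in replicate 2 and 7 in replicate 3. An empty replicate 1 was seen for 9.32% of the protein-coding genes with a reproducible summit. Rel lies within the span of Nmdmc, and the summit at 371 bp was closer to other starts, those of Mst85C (297 bp) and Nmdmc (303 bp).

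Most of the summits were found in every replicate. A replicate entry within 250 bp was present for 21 of the 24 summits in all 3 replicates, as for 90.5% of all reproducible summits. The 3 exceptions were both summits of Rel, absent from replicate 1, and the weakest summit of dl, absent from replicate 3. By replicate, 22, 24 and 23 of the 24 summits were found in replicates 1, 2 and 3. Of all reproducible summits, 91.7%, 99.1% and 99.5% were found in them, so replicate 1 was also the lowest over the whole list. Some neighbouring Dif summits shared a replicate entry, which these counts include for each of them. With matches within 100 bp, 19 summits were found in all 3 replicates. The matching entries ranked within 8693 in all 3 replicates for 14 of the 24 summits, so the other 10 rested in part on low-ranked entries or on none. Of those 14, the Dif summits at 17430108 and 17430307 count through the same replicate 3 entry, 128 and 71 bp away. The same share over all reproducible summits is not given here. Low ranks in some replicate were common, since only 5985 entries of replicate 2 ranked within 8693 in all 3 replicates. Because reads of these 3 replicates were pooled to make the reproducible list, the matches are not independent of it.

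**Figure D2:**
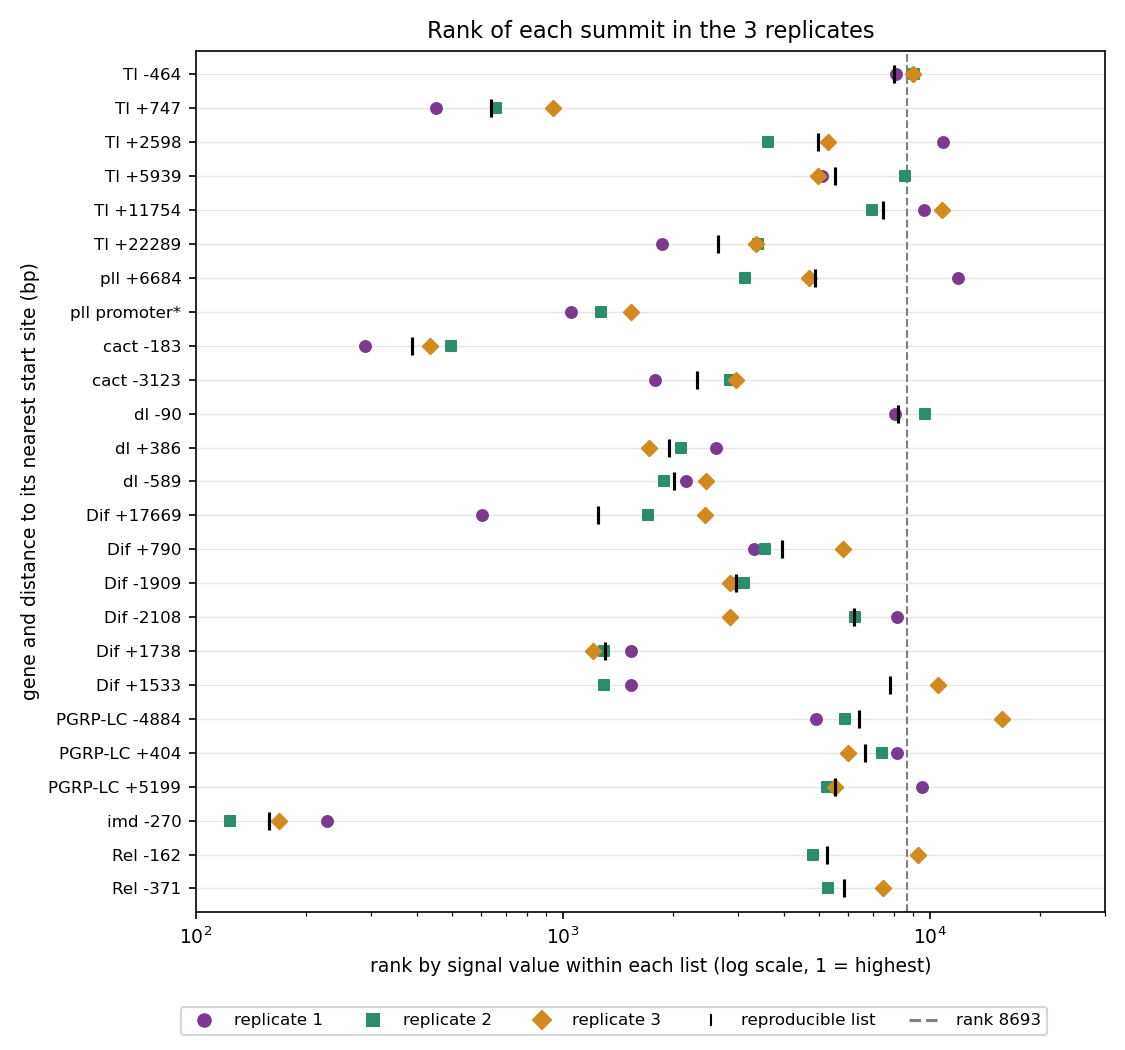
Each row is a summit, named by gene and by its distance in bp to the nearest start of that gene (negative is upstream); symbols give its rank by signal value in each replicate and a black tick its rank in the reproducible list, on a log axis with the highest rank at the left. The ranks of imd (228, 124 and 168) and of the cact summit at -183 bp (289, 496 and 434) lie close together, those of PGRP-LC at -4884 bp spread from 4896 to 15755, and both rows of Rel lack replicate 1; the row with an asterisk shows the pll start, which has no reproducible peak.

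Summits were more numerous at longer genes, and 4 of the 5 Toll genes are long. When all protein-coding genes were divided by span length into 10 classes, the mean number of summits was 3.83 in the longest and 0.609 in the shortest. Tl and Dif fell in the longest class, in which the median gene had 3 summits, 78.3% had at least 1, and 25.5% had 6 or more, as Tl and Dif do. cact, dl and PGRP-LC fell in the next class, where 67.8% of genes had a summit with a median of 1. Their 2, 3 and 3 summits were matched or exceeded by 43.5% (cact) and 26.7% (dl and PGRP-LC) of that class. imd and Rel belonged to a class with 50.5%, PGRP-LE to a class with 47.6%, and pll and key to a class with 45.0%. At each of the 8 genes with a summit, at least 25.5% of the genes of its length class had as many. Summits within 1 kb of a start were also more frequent at longer genes, at 42.5% of the class of Tl and Dif, 38.6% of that of cact, dl and PGRP-LC and 26.0% of that of imd and Rel, so the 22.7% of all genes is a low standard for these 7.

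**Figure D3:**
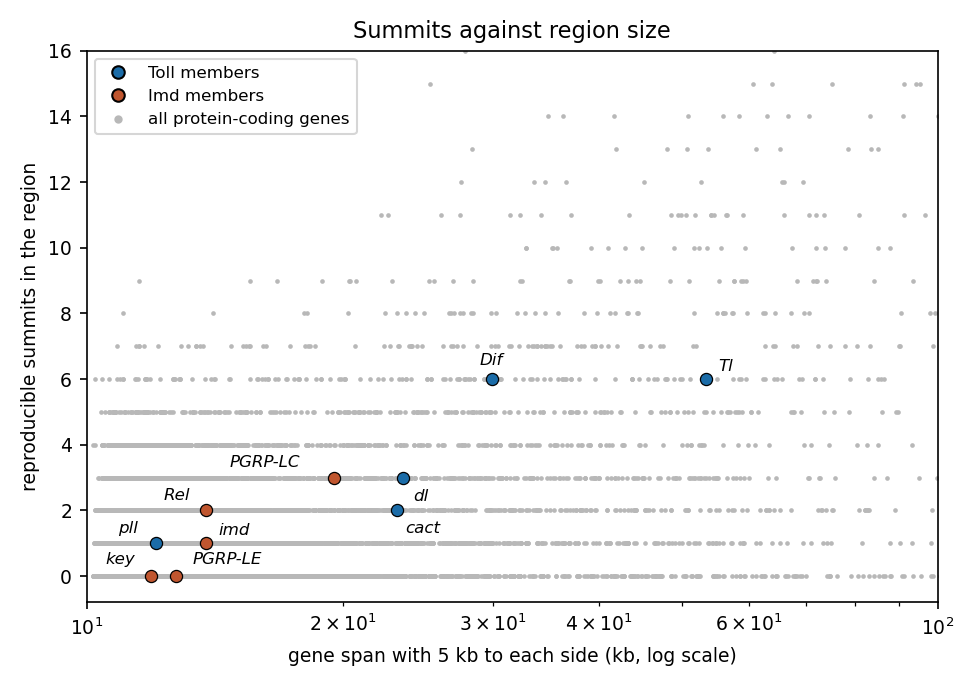
Each grey point is a protein-coding gene and each coloured point 1 of the 10 genes, with the size of the flanked region in kb on a log axis and the number of reproducible summits in it; some genes with larger regions or more summits lie outside the axes. Tl and Dif have 6 summits and the largest regions of the 10, while pll, key and PGRP-LE, with 1, 0 and 0, have the smallest.

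The 24 summits lay mainly in introns and at promoters. In introns lay 11 of them (45.8%, against 54.4% of all reproducible summits), and within 250 bp of an annotated start lay 7 (29.2%, against 19.9%). A further 2 lay in exons of non-coding genes, 1 in a 5′ UTR, 1 in a 3′ UTR, 2 between genes and 0 in coding exons. Of the 11 summits within 1 kb of the gene's own start, 7 lay upstream and 4 downstream. The nearest protein-coding start belonged to the listed gene itself for 17 of the 24 summits, at 6 of the 10 genes. Of all protein-coding genes, 25.1% had such a summit in their region. At pll and imd every reproducible summit was nearest to the start of another gene.

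The DNA under the summits was rich in A and T, as for Hr4-GFP summits in general. GC content within 50 bp to each side averaged 31.2% at the 24 summits and 31.7% at all reproducible summits (SD 8.66 and 7.59 percentage points across summits). The lowest was 16.8%, at the summit between CG15141 and Polr2J in the Dif region, and the highest was 55.4%, at the Tl summit 11754 bp into the gene. Among 7 motifs searched on both strands in these windows with exact matches, AGATAA was found at 3 of the 24 summits (12.5%, against 8.98% of all summits), those of Tl at 11754 bp, Dif at 790 bp and imd. The palindrome CACGTG was found at 1 (against 0.553% of all summits), in the same Dif window as AGATAA, without overlap. The nuclear receptor hexamer AGGTCA, its extended form TCAAGGTCA, GAGAG, TATCGATA and the NF-kappaB consensus were found at 0 of the 24 summits, against 1.8%, 0.023%, 8.38%, 0.668% and 0.449% of all summits. With 24 windows, shares of this size give few or no matches.

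**Figure D4:**
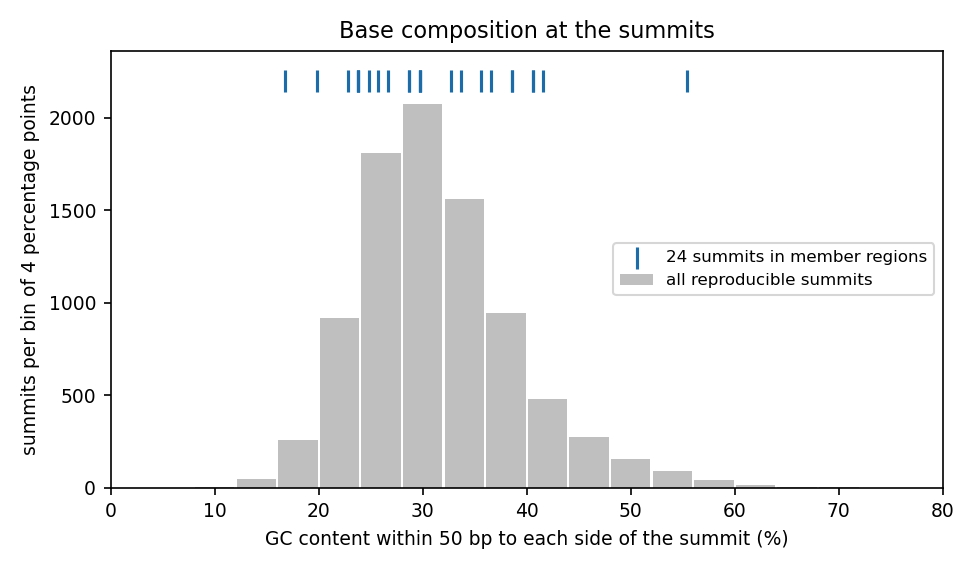
Grey bars count all reproducible summits by the GC content within 50 bp to each side, in bins of 4 percentage points, and blue ticks above them mark the 24 summits. The ticks run from 16.8% to 55.4% and all but the highest lie at or below 41.6%, over the bulk of the grey bars.

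The rest of both pathways was examined through 7 lists of textbook components, of which 70 of 71 symbols matched a protein-coding gene. In these lists 40 of 70 genes (57.1%) had a summit in the flanked region and 21 (30.0%) had 1 within 1 kb of a start, where 51.2% and 22.7% of all protein-coding genes did. The intracellular signalling genes had summits at 8 of 10 genes for the Imd pathway, the highest share of the lists, and at 5 of 7 for the Toll pathway. The strongest were at Gprk2, a kinase of the Toll pathway, 588 bp upstream of its start and within 83 bp of that of PNPase (signal value 3465.5, rank 2), at eff, a ubiquitin-conjugating enzyme (1188.6), at Tab2, the partner of the kinase Tak1 (1010), at aPKC (895.8), at Diap2, a ubiquitin ligase of the Imd pathway (612.6), and at Pli, the fly Pellino (547.5). Those at Tab2, eff and Pli lay in introns, with the gene's own start the nearest, and those at aPKC and Diap2 were nearer to the starts of ckn and bdg.

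Upstream of Tl, 10 of 15 ligand and extracellular protease genes had a summit. The highest signal values were at pip, a sulfotransferase of dorsoventral patterning (453.6), modSP, a serine protease (199.9), and nec, a serpin (161). Of the Toll recognition proteins 3 of 4 had a summit, PGRP-SA (443.1), GNBP3 (335.8) and GNBP1 (320.6). The summits named for pip, GNBP3 and GNBP1 were nearer to the starts of fal, CG43783 and GNBP2. The Toll family receptors had summits at 4 of 7 genes, led by 18w (510.2), Tollo (228.8) and Tehao (225). The 18w and Tollo summits lay 9196 and 10320 bp downstream of their starts, past the gene ends. That of Tehao lay 4346 bp upstream of its start. Among 13 inhibitors of the Imd pathway and further PGRP genes, 6 had a summit, led by PGRP-LB, a peptidoglycan amidase (312.4), pirk (231.1) and CYLD, a deubiquitinase (217.7). The pirk summit lay 3575 bp from pirk and 117 bp from CG42365. In that list 3 of the 10 summits were those already counted for PGRP-LC. The summits named here for modSP, PGRP-SA, GNBP1 and CYLD had no match in replicate 1, while the others named were found in all 3 replicates.

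The antimicrobial peptide genes, the downstream targets of dl, Dif and Rel, had the lowest share of the lists: 4 of 14 genes had 1 in the flanked region (28.6%) and 0 had 1 within 1 kb of a start, against 51.2% and 22.7% of all protein-coding genes. These genes are short, with a median span of 489 bp, against 2166 bp for all protein-coding genes. In the shortest length class, 168 to 725 bp, 35.7% of genes had a summit in the flanked region and 8.75% within 1 kb of a start, closer to the shares of the peptide genes. CecA1, CecA2 and CecB shared a single weak summit near RpS7 (signal value 89.36, rank 8556). Def had 2 summits in its region, the stronger of which (1113.3, rank 156) lay nearest to the start of magu. Drs, a common readout of the Toll pathway, and DptA, that of the Imd pathway, had 0 reproducible summits in their regions.

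**Figure D5:**
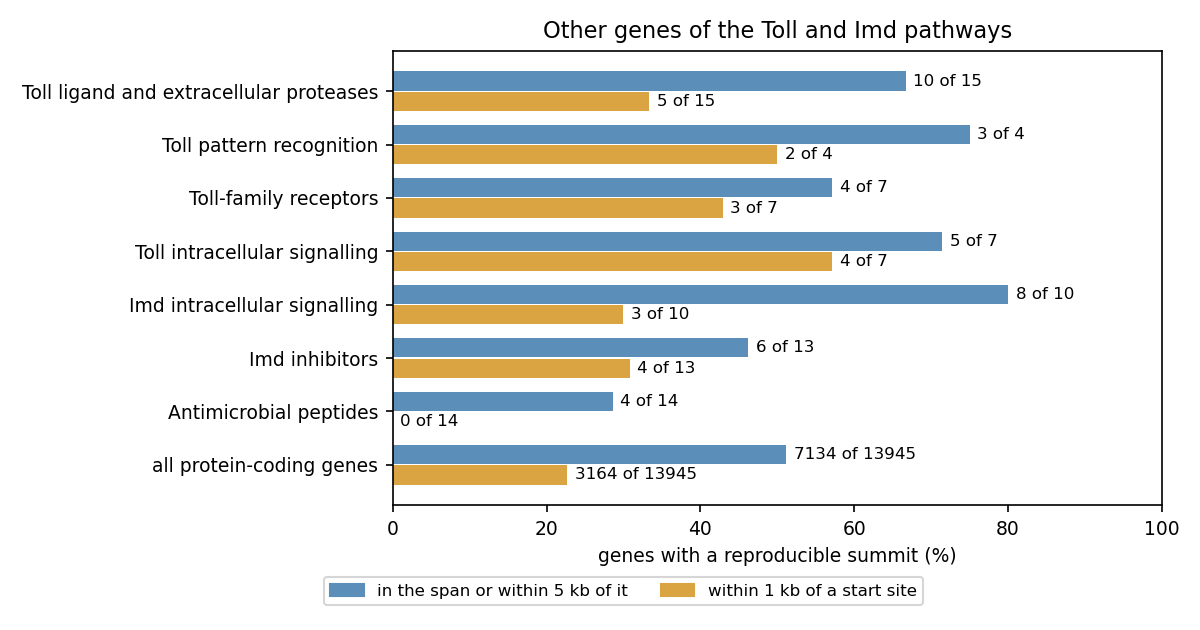
For each list of further Toll and Imd pathway genes, bars show the share of genes with a reproducible summit in the span or within 5 kb of it (blue) and within 1 kb of a start site (yellow), from 0 to 100%, with counts beside the bars and all protein-coding genes at the bottom. The shares in the flanked region run from 28.6% for the antimicrobial peptides to 80.0% for Imd intracellular signalling, against 51.2% of all protein-coding genes.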

How the data were processed

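Peak lists in build dm6 were used as deposited. Per text files deposited beside them, the authors derived a relaxed list of peaks and background from each replicate with a control and from all 3 replicates together, and a reproducible list from these 4 by irreproducible discovery rate analysis. The unit is the signal value of each peak as deposited by the authors, compared only within a list, between lists by rank. For the peak caller, aligner and threshold, nothing is given in the sources used here. Chromatin was sonicated, per the labels. Lists in build dm3 were not used.

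Gene spans and start sites came from the Ensembl release 115 annotation and sequences from the RefSeq Release 6 genome. A summit was assigned to every gene whose span with 5 kb to each side contained it, so neighbours can share one. Summits within 250 bp counted as matched. Python 3.11.15, numpy 2.4.6 and matplotlib 3.10.9 were used, and the counting functions were tested on simulated data. The text names the 10 genes, genes nearest to their summits, and the 3 genes with the highest signal in each wider list (ties included), and adds the readouts Drs and DptA, chosen after their values were seen. 1 listed symbol, Spn1, was not matched. The 10 genes and the lists were chosen with earlier results of these data known. In all, 18 other settings were planned and 3 were added after seeing the data.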

Additional observations from a re-analysis of the deposited data

How the results depend on the processing

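Counts depended on the flank and on peak strength. Without a flank, 5 of the 10 genes had a summit (15.6% of all protein-coding genes), with 14 summits in all and 13 found in all 3 replicates, because imd, Rel and pll have theirs outside the span. With the stronger 50% of peaks, 5 genes had a summit (38.0% of all protein-coding genes), with 11 summits in all, 11 of them in all 3 replicates and a median signal value of 325.4. When entries of replicate 2 that ranked high in all 3 replicates replaced the reproducible list, a setting added after seeing the data, the regions held 15 summits. Leaving out each replicate in turn gave 21 to 23 summits found in all remaining replicates. The other settings moved none of the 5 totals by more than 1.5 times, though with a flank of 10 kb single genes gained summits, Rel having 10, dl 8 and key 1. At that flank 9 of the 10 genes had a summit, where 67.5% of all protein-coding genes did.

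No paired analysis was possible because the replicates form a single group. The lists carry no read depth. Replicates were left out of the matching only, since the reproducible list comes from pooled reads.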
